A study of Mus musculus with 20 samples.

Results

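The response of wild-type mouse eosinophils to 4 hours of interleukin-33 (IL-33) was taken as the difference, gene by gene, between 5 arrays of IL-33 cells and 5 arrays of untreated cells. These 10 arrays are the Dusp5+/+ samples among the 20 of the series. IL-33 cells received 25 ng/ml of the cytokine on day 12 of the bone marrow culture, and untreated cells stayed in medium alone. Each of 5 mice gave 1 array of either kind, and arrays were paired by replicate number. The remaining 10 arrays come from Dusp5-/- cells of 5 other mice, handled in the same way, and they enter here through the filter on dim genes, the shared estimate of spread and a comparison between the genotypes. The sources used here do not give the strain, age or sex of the mice. Of 17772 genes with a probe set of their own, 11767 were bright enough to be tested.

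Eosinophils are granulocytes of allergic and antiparasite immunity, and IL-33 is an alarm cytokine that barrier cells release when they are damaged. It binds a receptor of the interleukin-1 family, and the adaptor MyD88 with the IRAK kinases and TRAF6 passes the signal on to the IkB kinases and to the MAP kinases. IkB proteins hold NF-kB factors in the cytoplasm until they are phosphorylated and degraded, and many NF-kB target genes encode brakes on the same pathway.

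The labelled cell type was checked first. Epx, the eosinophil peroxidase, stood at 13.54, 12.85, 13.76, 13.50 and 13.69 in IL-33 cells, against 13.57, 13.01, 13.81, 13.54 and 13.67 in untreated cells. The Epx groups overlapped, and 4 of 5 mice were lower after IL-33. Prg2, the major basic protein of the granule, averaged 13.82 ± 0.08 in IL-33 cells and 13.82 ± 0.11 in untreated cells (SD, n = 5 each). Both lie near 13.99, the highest value in the table, where a probe may respond less than in proportion. Siglecf, Ccr3 and Il5ra, surface markers of the lineage, averaged 9.75, 8.25 and 7.49 in IL-33 cells and 10.46, 8.55 and 8.33 in untreated cells. Arrays of mouse 2 and mouse 3 stood apart from the others in both conditions, and counts of list members without them are given where they differ by over 1.5 times and by more than 1 gene. All 5 eosinophil markers gave strong signal in both groups. Their summed level (as log2 of the sum) ran from 14.44 to 14.90 on IL-33 arrays and from 14.53 to 14.96 on untreated arrays. These ranges overlap those of 13 neutrophil markers, given below. In such bulk RNA, fewer cells of a type and less RNA per cell cannot be told apart.

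The response itself is illustrated on 6 genes, Ptgs2, Cxcl2, Il1b, Nfkbiz, Pim2 and Pik3ip1. They were chosen with earlier results of these data known and include the largest rise and the largest fall. They therefore describe the response and do not test it. Ptgs2, the inducible cyclooxygenase that starts prostaglandin synthesis, stood at 11.30, 11.81, 10.94, 11.14 and 11.05 in IL-33 cells, against 4.20, 3.51, 3.02, 2.76 and 2.42 in untreated cells on the log2 scale of the table. The untreated arrays other than that of mouse 1 lay under the 40th percentile of their array, used here as a floor, so the rise was at least 185-fold. Cxcl2, a neutrophil-attracting chemokine, stood at 11.37, 12.19, 11.45, 11.40 and 11.25 in IL-33 cells, against 4.97, 5.44, 5.48, 4.98 and 4.39 in untreated cells. Il1b, interleukin-1 beta, stood at 12.54, 12.86, 12.24, 12.46 and 12.11 in IL-33 cells, against 6.18, 6.23, 6.52, 6.20 and 5.97 in untreated cells. In Cxcl2 and Il1b the lowest IL-33 array lay above the highest untreated array. Pik3ip1, an inhibitor of PI3-kinase, moved the other way and stood at 5.11, 5.01, 4.91, 5.34 and 5.26 in IL-33 cells, against 7.59, 8.06, 7.68, 7.93 and 7.83 in untreated cells. It fell by 2.69 ± 0.14 (log2 difference ± SE; limma, adjusted p 1.2e-08), the largest fall of any gene called, and its groups did not overlap.

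IL-33 changed the level of 57.8% of the genes tested, mostly by little. At an adjusted p under 0.05 (limma, mouse as a block, Benjamini-Hochberg), 2445 genes (20.8% of those tested) rose and 4356 (37.0%) fell. Large changes were mostly rises. At 2-fold or more, 316 genes (2.69%) rose and 197 (1.67%) fell, and above 3 on the log2 scale 31 genes rose and 0 fell. Among changes of 0.25 to 0.5, which is the size class with the most calls, 1028 genes rose and 1996 fell. A call in this comparison is therefore a common event, and the counts below are to be read against these percentages. They are counts of tested members only: over all lists, 1014 of 1105 entries with a probe set were tested. The untested share differed between lists, and a gene dim without IL-33 could pass the filter through its IL-33 arrays. The lists were chosen with earlier results of these data known.

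**Figure D1:**
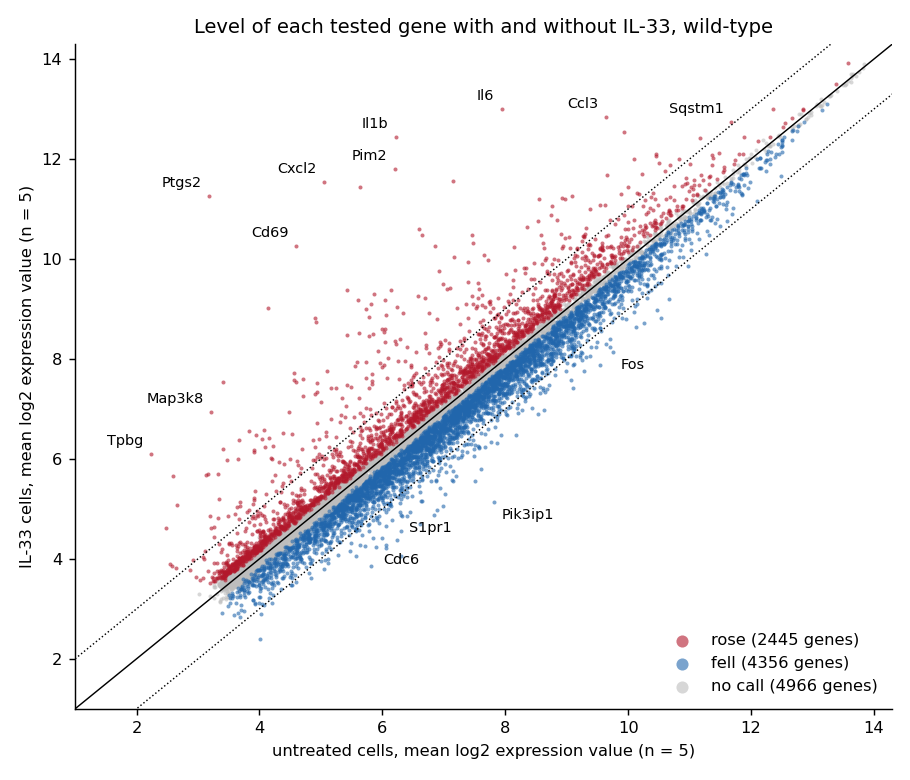
Mean log2 expression value of each of the 11767 genes tested in IL-33 cells (vertical axis) and untreated cells (horizontal axis) of wild-type mice, 5 arrays each. Red points rose, blue points fell and grey points were not called, the solid line marks equal levels and the dotted lines mark a 2-fold change. Named rises such as Ptgs2, Cxcl2 and Il1b lie far above the upper dotted line, while the largest falls, led by Pik3ip1, stay within 2.69 of the solid line.

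The balance between rises and falls depended on the scaling of the arrays. Over the genes tested, the median of an IL-33 array lay below that of its untreated partner in all 5 mice, by 0.11 on average (from 0.05 to 0.17), which the authors' scaling left in place. With the arrays centred on that median, 3931 genes rose and 3162 fell, so rises made up 55.4% of calls instead of 36.0%. Centring on the 75th percentile gave 3654 rises and 3335 falls, and a further quantile normalization 2819 and 3814. Called changes under about 0.2 are for this reason given below only as members of a count.

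Changes ran in parallel in the 5 mice. The first principal component of the 10 arrays held 63.1% of the variance and separated all IL-33 arrays from all untreated arrays, while the second held 19.98% and set mouse 2 and mouse 3 apart in both conditions. When each mouse's changes were regressed on the mean of the other 4, the slope ran from 0.915 to 1.02 and the correlation across genes from 0.890 to 0.927, where genes are not independent replicates. Of the called genes, 96.3% to 98.9% had the direction of the call in a single mouse. In 1256 genes (10.7%) every IL-33 array lay above every untreated array, and in 2073 (17.6%) below, which is 28.3% together. Without mice 2 and 3, 1968 genes rose and 3448 fell. In all 5 mice, 2295 genes (19.5%) were higher and 4233 (36.0%) lower after IL-33.

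Calls were less frequent among dim genes. By their mean level over the 10 arrays, 24.9% of 1431 genes below 4 were called, 46.5% of 4056 between 4 and 6, 71.3% of 3454 between 6 and 8, 75.9% of 2134 between 8 and 10 and 68.6% of 692 above 10. The median SE of a change was 0.09 in the dimmest class and 0.05 in the brightest. In the same order of classes, 10, 73, 113, 93 and 27 genes rose and 4, 65, 84, 41 and 3 fell at least 2-fold, so large rises were found at all levels and large falls were few among the brightest genes.

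Nearly all genes of the NF-kB arm of the pathway rose. Of 13 tested genes of the NF-kB and IkB family, 12 rose and 0 fell, with a median change of 1.38 against -0.05 over all genes tested. Nfkbia encodes IkB alpha, the main cytoplasmic inhibitor. It stood at 12.72, 12.33, 12.45, 12.60 and 12.61 in IL-33 cells, against 10.06, 9.55, 9.95, 9.95 and 10.12 in untreated cells. Nfkbiz, a nuclear IkB protein that helps NF-kB switch on secondary genes, stood at 11.43, 11.43, 11.47, 11.40 and 11.47 in IL-33 cells, against 5.71, 6.09, 5.84, 5.29 and 5.27 in untreated cells. The groups were far apart in both, with changes of 2.62 ± 0.06 for Nfkbia and 5.80 ± 0.13 for Nfkbiz (limma, adjusted p 6.4e-12 and 9.1e-12). Subunits of the dimers differed in size of change: Relb and Nfkb2 of the alternative branch rose by 2.60 ± 0.09 and 2.54 ± 0.07, Rel by 1.73 ± 0.11, and Rela, the subunit present in most resting cells, by 0.28 ± 0.05. Bcl3, a nuclear coactivator, rose by 2.51 ± 0.05. The inhibitors Nfkbie, Nfkbid and Nfkbib rose by 1.38, 0.91 and 0.88. The kinase that starts the alternative branch, Map3k14, had a change of -0.08 ± 0.16 and was not called.

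Promoter sequences of several of these genes hold the consensus that NF-kB dimers bind. The windows below, from the RefSeq promoter table (GRCm38.p6), give the matches in capitals with 20 bases on either side where the window allows, 5′ to 3′ on the strand of the gene, and are shown because their genes are among the rises described here.
Cxcl2, chr5:90903782-90903832, plus strand: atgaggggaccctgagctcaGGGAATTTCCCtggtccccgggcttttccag
Il6, chr5:30013050-30013099, plus strand: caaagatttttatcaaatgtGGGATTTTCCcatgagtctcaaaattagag
Nfkbia, chr12:55492648-55492696, minus strand: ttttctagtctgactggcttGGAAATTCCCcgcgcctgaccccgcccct
Nfkb2, chr19:46304678-46304736, plus strand: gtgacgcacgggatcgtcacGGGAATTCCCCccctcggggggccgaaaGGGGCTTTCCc
Tnfaip3, chr10:19015411-19015555, minus strand: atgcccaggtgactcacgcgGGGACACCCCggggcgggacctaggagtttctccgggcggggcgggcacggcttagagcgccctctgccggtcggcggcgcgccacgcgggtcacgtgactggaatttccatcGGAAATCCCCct

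The matches start 97, 44 and 29 bases before the transcription start in Cxcl2, Il6 and Nfkbia, and Cxcl2 holds overlapping ones. In the 250 bases before the start, the NF-kB consensus was found on either strand in 1096 of 12110 promoters of tested genes (9.05%). It was present in 51 of 344 promoters of genes that rose at least 2-fold (14.8%), in 7 of 24 of those that rose at least 8-fold (29.2%) and in 19 of 226 of those that fell at least 2-fold (8.41%). Across the complete promoter set, 7.25% of 32841 promoters hold it. No match lies in the windows of Ptgs2, Il1b and Pim2, nor in that of a second Tnfaip3 start, which says only that these letters are not in those 250 bases. A match is a description of letters, and binding was not measured.

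Regulators of ubiquitin signalling mostly rose beside them. Of 13 genes of the list of A20, TRAF and cIAP regulators, 8 rose and 1 fell. Tnfaip3, which encodes the ubiquitin-editing enzyme A20, stood at 10.62, 10.93, 10.49, 10.65 and 10.51 in IL-33 cells, against 8.26, 8.73, 8.34, 8.22 and 8.22 in untreated cells. Each Tnfaip3 value after IL-33 lay above each untreated value, and mouse 2 was highest among the untreated arrays. Its partner Tnip1 rose by 1.30 ± 0.06, the adaptor Traf1 by 2.72 ± 0.12, the ligase gene Birc3 by 0.92 ± 0.05 and Otulin, a linear-ubiquitin protease gene, by 0.93 ± 0.05. Tifa, an adaptor that activates TRAF6, was the member that fell, by 0.46 ± 0.07. Tank, a TRAF-binding adaptor, had a change of -0.02 ± 0.06 and was not called.

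Among the proximal components, 7 of 12 rose and 3 fell. Irak3, an inhibitory IRAK found in myeloid cells, rose by 2.29 ± 0.09. The receptor partner chain Il1rap rose by 0.51 ± 0.08, Traf6 by 0.42 ± 0.06, Myd88 by 0.39 ± 0.05 and Irak2 by 0.38 ± 0.07. Irak3 stood at 11.02, 10.97, 11.02, 11.08 and 11.16 in IL-33 cells, against 8.50, 8.68, 9.21, 8.59 and 8.84 in untreated cells. All 5 IL-33 arrays thus lay well above the untreated ones. Sigirr, an inhibitory receptor of the same family, fell by 0.60 ± 0.08, and Tab1, which binds the kinase TAK1, fell by 0.32 ± 0.05.

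Genes of cytokine mRNA decay split, 5 of 11 up and 4 down. Zc3h12a, the endonuclease regnase-1 that cuts Il6 and other cytokine messages, stood at 8.74, 8.80, 8.66, 8.68 and 8.79 in IL-33 cells, against 4.76, 5.42, 4.82, 4.75 and 4.88 in untreated cells. The Zc3h12a groups did not overlap, with mouse 2 highest among the IL-33 arrays. Its relative Zc3h12c rose by 3.05 ± 0.07, whereas Zc3h12d fell by 0.83 ± 0.12. Zfp36l1, which binds AU-rich elements, rose by 0.84 ± 0.05 and its relative Zfp36l2 fell by 0.58 ± 0.06.

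Feedback genes of the MAP kinase arm mostly rose. Of 20 genes of ERK output and feedback, 15 rose and 2 fell (median 1.13), and of 8 MAP kinase phosphatases, 6 rose and 2 fell. Of 15 kinases of the RAF-MEK-ERK, p38 and JNK cascades, 5 rose and 3 fell (3 rose without the mouse block). The only 1 of these kinases to rise at least 2-fold was Map3k8, which encodes Tpl2, the kinase that feeds NF-kB signals into ERK. It stood at 7.03, 7.08, 6.62, 7.13 and 6.81 in IL-33 cells, against 3.11, 3.74, 3.47, 2.85 and 2.85 in untreated cells. All IL-33 arrays of Map3k8 lay above all untreated ones, and mouse 3 gave the lowest of them. The untreated arrays lay on average below the floor, and the rise was at least 9.93-fold. Map2k1, the MEK1 gene, rose by 0.42 ± 0.05, and Map3k1 and Braf fell by 0.78 ± 0.07 and 0.42 ± 0.05.

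Dual-specificity phosphatases moved both ways. Dusp16, whose substrates are JNK and p38, rose by 2.65 ± 0.10, Dusp5 by 1.62 ± 0.12, Dusp4 by 1.18 ± 0.06 and Dusp2 by 1.07 ± 0.13. Dusp5, the nuclear ERK phosphatase for which the other mice of the series are deficient, stood at 9.84, 10.23, 9.28, 9.67 and 9.85 in IL-33 cells, against 8.25, 8.51, 7.85, 8.21 and 7.94 in untreated cells. The lowest IL-33 array lay above the highest untreated one. Dusp1, an early gene that dephosphorylates p38 and JNK, averaged 8.75 ± 0.21 in IL-33 cells and 9.46 ± 0.23 in untreated cells and fell by 0.71 ± 0.05.

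Immediate early transcription factors were also unequal at 4 hours. Egr1, Egr2 and Egr3, zinc finger factors of the growth factor response, rose by 2.14 ± 0.18, 2.54 ± 0.07 and 2.80 ± 0.28. Fos, the partner of Jun in classical AP-1, stood at 8.18, 8.39, 7.78, 8.29 and 8.01 in IL-33 cells, against 9.87, 9.93, 9.54, 9.75 and 9.68 in untreated cells. Fos groups did not overlap, and the gene fell by 1.62 ± 0.06 (adjusted p 7.3e-10), among the 30 largest falls. Jun stood at 8.84, 8.69, 8.83, 8.61 and 8.32 in IL-33 cells, against 7.68, 7.69, 7.71, 7.54 and 7.46 in untreated cells. Each Jun value after IL-33 lay above each untreated value, and mouse 3 was highest among the untreated arrays. In all, 10 of 14 AP-1 and Maf genes rose and 1, Fos, fell: the Fos relative Fosl1 rose by 1.35 ± 0.09, Junb and Jund by 0.78 ± 0.07 and 0.79 ± 0.06, and Batf and Batf3, which dimerize with Jun proteins, by 1.52 ± 0.06 and 1.60 ± 0.13. Spred1 and Spred2, inhibitors of RAS-RAF signalling, rose by 1.58 ± 0.07 and 1.17 ± 0.11, whereas Spry2, another such inhibitor, fell by 0.82 ± 0.11. Phlda1 and Ier3, early genes linked to survival, rose by 3.06 ± 0.11 and 2.29 ± 0.06, and the growth regulator Myc by 1.10 ± 0.06.

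SOCS genes, which feed back on the STAT pathways, and Pim kinase genes rose without exception in their list. All 10 tested SOCS and Pim genes rose, with a median of 1.75. Pim2, a serine/threonine kinase that promotes survival, stood at 11.92, 11.47, 11.79, 11.90 and 11.89 in IL-33 cells, against 6.15, 5.89, 6.28, 6.41 and 6.28 in untreated cells. Socs1, the suppressor that blocks JAK kinases, stood at 6.36, 6.45, 6.18, 6.21 and 6.03 in IL-33 cells, against 4.39, 4.12, 4.14, 3.99 and 3.79 in untreated cells. Socs3, the suppressor that acts on gp130 signalling, rose by 3.92 ± 0.13, Cish, a target of STAT5, by 2.87 ± 0.11 and Pim3 by 2.68 ± 0.10. Groups were apart on every array in Pim2 and Socs1. Of 10 JAK kinases and STAT factors, 2 were up and 3 down (1 down without the mouse block, with arrays centred on the median or without mice 2 and 3). Tyk2 and Jak2 rose by 1.15 ± 0.06 and 1.01 ± 0.07 and Stat5b fell by 0.45 ± 0.05. Among 8 interferon regulatory factors 3 rose and 3 fell (1 fell without the mouse block). Irf4, a factor of alternative activation, rose by 2.73 ± 0.12, Irf7 by 0.80 ± 0.12, and Irf1 fell by 0.66 ± 0.06.

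**Figure D2:**
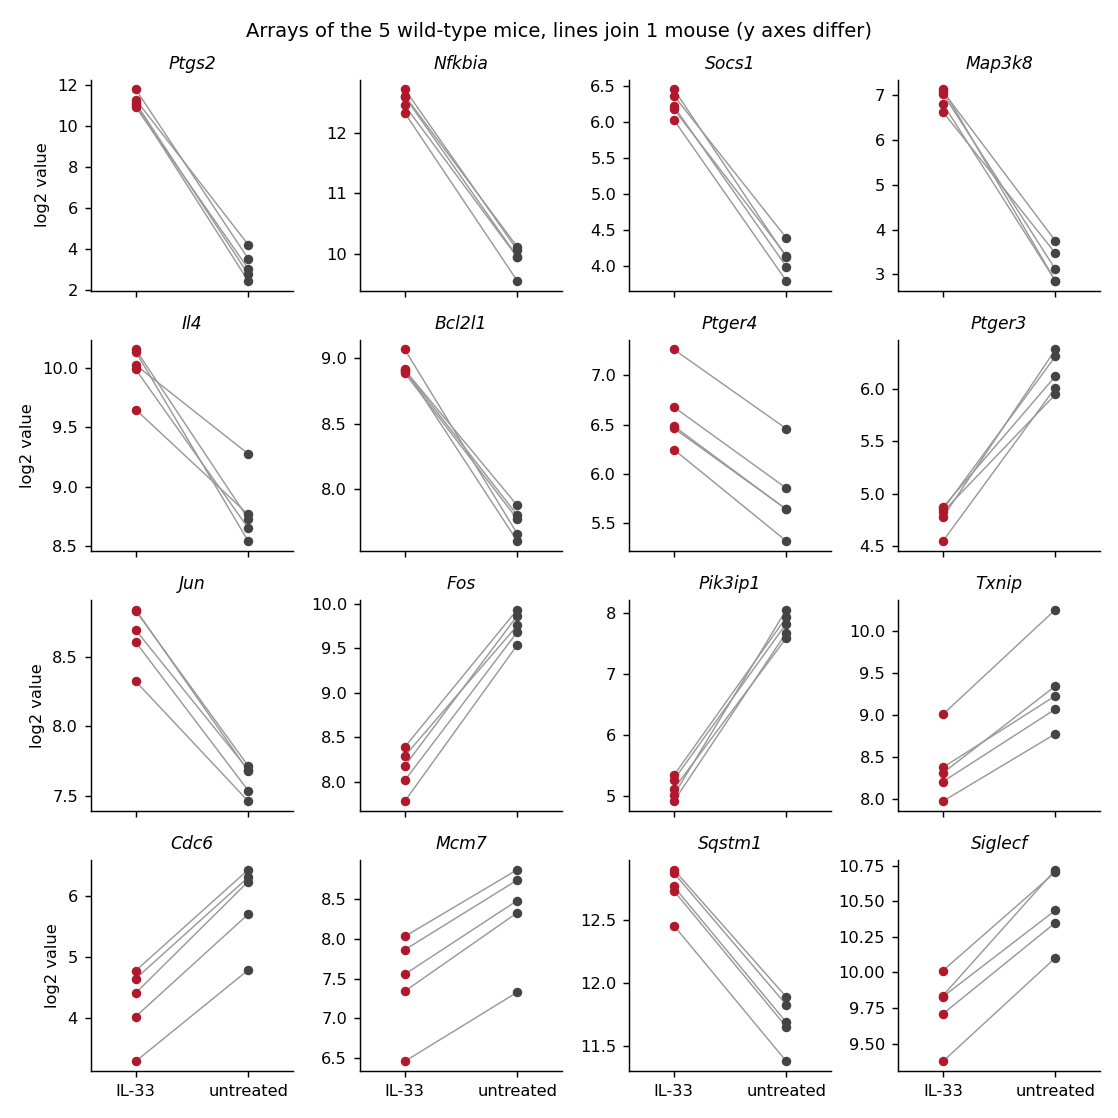
Log2 expression value of 16 genes on the 5 IL-33 arrays (red, left) and the 5 untreated arrays (dark, right) of wild-type mice, with a grey line joining the arrays of 1 mouse. The groups are far apart in Ptgs2, Map3k8 and Nfkbia, Jun and Fos slope in opposite directions, and in Cdc6 and Mcm7 the mice differ in level while their lines run nearly parallel.

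Secreted mediators were among the largest rises. Of 14 tested inflammatory cytokine genes 10 rose and 1, Il18, fell. Il18 fell by 0.27 ± 0.08 (limma, adjusted p 0.136 without the mouse block and 0.0873 with arrays centred on the median). Another 8 of the 22 with a probe set were too dim to be tested. Il6 stood at 13.07, 13.19, 12.84, 12.99 and 12.89 in IL-33 cells, against 8.01, 8.15, 7.77, 7.81 and 7.97 in untreated cells. Tnf, tumour necrosis factor, stood at 9.23, 9.76, 8.28, 9.16 and 8.55 in IL-33 cells, against 5.81, 5.89, 5.68, 5.77 and 5.53 in untreated cells. Both were separated on all arrays, with changes of 5.06 ± 0.06 and 3.26 ± 0.15. Il1a started below the floor on average and rose at least 15.2-fold. The antagonist of interleukin-1, Il1rn, rose by 2.85 ± 0.06 and averaged 9.76 ± 0.31 in IL-33 cells and 6.91 ± 0.28 in untreated cells. Hbegf, a ligand of the EGF receptor, rose by 2.49 ± 0.17, and Ltb, lymphotoxin beta, by 1.47 ± 0.05.

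Some type 2 cytokines, the products by which eosinophils act on B cells and mucosa, were part of the response. Of 6 tested genes of type 2 cytokines and colony-stimulating factors 3 rose (5 with arrays centred on the median) and 0 fell. Another 5 of the 11 with a probe set were too dim to be tested. Il13 stood at 9.08, 10.13, 9.02, 9.06 and 8.62 in IL-33 cells, against 5.39, 5.84, 5.48, 5.59 and 5.69 in untreated cells. Il4 stood at 9.99, 10.02, 10.14, 10.16 and 9.65 in IL-33 cells, against 8.65, 9.28, 8.54, 8.73 and 8.76 in untreated cells. The Il4 groups did not overlap, with mouse 4 highest among the IL-33 arrays. Il13 rose by 3.58 ± 0.19 with no overlap between its groups, and Il4 rose by 1.20 ± 0.13. Csf2, which encodes the survival cytokine GM-CSF, was under the floor on all 5 untreated arrays and above it on all IL-33 arrays, a rise of at least 2.03-fold. Csf1, the macrophage growth factor, had a change of -0.09 ± 0.07 and was not called.

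Chemokines of both main classes were among the rises. Of 12 CC chemokines 8 rose and 1 fell (median 1.58), and of 11 CXC chemokines 6 rose and 0 fell (median 0.24). Ccl3 and Ccl4, macrophage inflammatory proteins, rose by 3.21 ± 0.07 and 3.41 ± 0.09, and the monocyte attractants Ccl2 and Ccl7 by 2.59 ± 0.08 and 3.24 ± 0.08. Ccl24, eotaxin-2, which attracts eosinophils through CCR3, stood at 7.56, 7.90, 7.88, 7.27 and 7.24 in IL-33 cells, against 4.75, 4.51, 4.67, 4.74 and 4.17 in untreated cells. All IL-33 arrays of Ccl24 lay above all untreated ones, and mouse 5 gave the lowest of them. Cxcl10, a ligand of CXCR3, rose by 2.59 ± 0.14 and Cxcl3 by 3.99 ± 0.09. Ccl17, a ligand of CCR4, fell by 0.44 ± 0.10. Cxcl5 rose by 1.14 ± 0.28 with changes per mouse from 0.45 to 2.15, among the widest spreads between mice of any 2-fold change.

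Chemokine receptors had more falls than rises, as had all genes tested. Of 9, 5 fell and 1 rose (3 fell without the mouse block), beside 37.0% and 20.8% of all genes tested. Ccr2 and Cx3cr1, receptors of monocyte attractants, fell by 0.84 ± 0.09 and 0.82 ± 0.12, Cxcr4, the receptor for bone marrow retention, by 0.45 ± 0.06 and Ccr3, the eotaxin receptor, by 0.30 ± 0.08. For Ccr3 the adjusted p was 0.525 without the mouse block and 0.0872 with arrays centred on the median. Ccrl2, which binds chemerin without signalling, rose by 0.73 ± 0.09. Ccr1 had a change of 0.02 ± 0.08 and was not called.

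Of 26 cytokine receptors, 9 rose and 9 fell, beside 20.8% and 37.0% of all genes tested. Without the mouse block 9 rose and 5 fell, and with arrays centred on the median 12 rose and 5 fell. Il17ra, a subunit of the interleukin-17 receptors, stood at 6.28, 6.70, 6.35, 6.47 and 6.64 in IL-33 cells, against 8.05, 8.48, 8.12, 8.13 and 8.12 in untreated cells. The groups were apart, and the fall was 3.23-fold. Both chains of the interleukin-18 receptor fell, Il18r1 by 1.08 ± 0.10 and Il18rap by 0.94 ± 0.08. Il5ra, the receptor chain specific to interleukin-5, the main eosinophil growth factor, stood at 7.36, 7.29, 7.71, 7.34 and 7.77 in IL-33 cells, against 8.13, 8.14, 8.75, 8.18 and 8.46 in untreated cells. Each Il5ra value after IL-33 lay below each untreated value, and mouse 3 was highest among the untreated arrays. It fell by 0.84 ± 0.08 (adjusted p 1.7e-06). On the rising side stood Il6st, the gp130 chain of interleukin-6 receptors (1.55 ± 0.06), Il10ra (1.21 ± 0.07), Ifngr2 (0.84 ± 0.06), Il1r1 (0.75 ± 0.08) and Il4ra (0.71 ± 0.05).

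Pattern recognition receptors split, 4 of 11 up and 4 down, beside 20.8% and 37.0% of all genes tested. Cd14, the lipopolysaccharide coreceptor, stood at 10.97, 11.04, 10.75, 10.95 and 10.70 in IL-33 cells, against 8.86, 8.82, 8.95, 8.74 and 8.38 in untreated cells. The Cd14 groups did not overlap, with mouse 2 highest among the IL-33 arrays. Tlr2 rose by 0.68 ± 0.08 and Tlr4 by 0.35 ± 0.05, while Tlr13, a sensor of bacterial ribosomal RNA, fell by 0.75 ± 0.05 and Tlr1 and Tlr6, the partners of Tlr2, by 0.47 ± 0.06 and 0.46 ± 0.05. Clec4e, the C-type lectin Mincle, was among the 30 largest rises of all genes (3.82 ± 0.09).

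Of 12 tested TNF superfamily ligands and receptors, 8 rose and 1 fell, and 8 of the 20 with a probe set were too dim to be tested. Tnfrsf9, the costimulatory receptor 4-1BB, was below the floor on average in untreated cells and rose at least 5.85-fold. Its ligand Tnfsf9 rose by 0.92 ± 0.09, Cd40 by 1.33 ± 0.09 and the death receptor gene Fas by 1.31 ± 0.11. Tnfrsf18, the receptor GITR, fell by 0.57 ± 0.06. Checkpoint and costimulatory genes rose in 8 of 13 and fell in 2. Cd69, an early activation marker that retains leukocytes in tissue, stood at 9.99, 10.68, 10.33, 10.12 and 10.17 in IL-33 cells, against 4.45, 4.94, 4.92, 4.42 and 4.24 in untreated cells. All IL-33 arrays of Cd69 lay above all untreated ones, and mouse 1 gave the lowest of them. Cd274 and Pdcd1lg2, the ligands of PD-1, rose by 1.34 ± 0.09 and 1.65 ± 0.08, and Cd80, which binds CD28 and CTLA-4, by 1.30 ± 0.13, while Cd86, which shares those receptors, had a change of -0.04 ± 0.07 and was not called. Vsir, the checkpoint VISTA, fell by 0.61 ± 0.06 and Cd276 by 0.62 ± 0.08.

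Adhesion genes showed 7 rises and 5 falls among 17. Icam1, the ligand of beta-2 integrins, averaged 9.23 ± 0.20 in IL-33 cells and 7.55 ± 0.20 in untreated cells and rose by 1.68 ± 0.05. Itgb1 rose by 0.71 ± 0.06 and the tetraspanin Cd81 by 1.12 ± 0.11, while Itga6, the laminin receptor chain, fell by 0.94 ± 0.05 and Selplg, the P-selectin ligand, by 0.66 ± 0.05. Itgb2, the beta-2 integrin chain itself, had a change of -0.06 ± 0.04 and was not called.

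Receptors for lipid mediators and chemoattractants moved both ways, with 6 of 18 up (9 with arrays centred on the median), 6 down and a median of 0.05. Of all genes tested 20.8% rose and 37.0% fell. Ptger3, the prostaglandin E2 receptor that lowers cyclic AMP, stood at 4.83, 4.78, 4.87, 4.55 and 4.85 in IL-33 cells, against 5.95, 6.38, 6.12, 6.01 and 6.31 in untreated cells. Ptger4, a receptor of the same prostaglandin that raises cyclic AMP, stood at 6.68, 7.27, 6.24, 6.46 and 6.48 in IL-33 cells, against 5.85, 6.46, 5.31, 5.64 and 5.63 in untreated cells. The Ptger3 groups did not overlap, the Ptger4 groups did, and the changes were -1.38 ± 0.07 for Ptger3, 0.85 ± 0.05 for Ptger4 and 0.82 ± 0.08 for Ptger2, the other receptor that raises it. The prostacyclin receptor Ptgir rose by 1.01 ± 0.09. S1pr1 and S1pr4, receptors of sphingosine 1-phosphate that guide exit from tissue, fell by 1.44 ± 0.15 and 1.06 ± 0.07, the leukotriene B4 receptor Ltb4r1 by 1.10 ± 0.06 and the histamine receptor Hrh4 by 0.85 ± 0.14. Ptgdr2, the prostaglandin D2 receptor CRTH2, had a change of 0.20 ± 0.11 and was not called (adjusted p 0.133, and 0.0336 with arrays centred on the median).

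Genes of the synthesis of these lipids moved both ways. Beside Ptgs2, Pla2g4a, the phospholipase that frees arachidonic acid, rose by 1.05 ± 0.06. Among 14 eicosanoid genes 7 fell and 5 rose (4 fell without the mouse block or with arrays centred on the median). The 5-lipoxygenase gene Alox5 fell by 0.49 ± 0.05, the leukotriene A4 hydrolase gene Lta4h by 0.41 ± 0.05, Alox15, which makes 15-lipoxygenase products, by 0.53 ± 0.05 and the thromboxane synthase gene Tbxas1 by 0.54 ± 0.05. The list median was -0.08 and turned to 0.04 with arrays centred on the median. For Ptges, the inducible prostaglandin E synthase, which rose, the untreated arrays were under the floor on average and the bound was 1.12-fold.

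Rises were found among genes of survival and of death. All 4 tested anti-apoptotic Bcl2 genes rose. Bcl2l1, which encodes Bcl-xL, stood at 8.92, 8.90, 9.07, 8.91 and 8.89 in IL-33 cells, against 7.61, 7.80, 7.66, 7.88 and 7.77 in untreated cells. Each Bcl2l1 value after IL-33 lay above each untreated value, and mouse 4 was highest among the untreated arrays. Bcl2 rose by 1.37 ± 0.19, with changes per mouse from 0.75 to 2.52, but averaged 3.69 in untreated cells, near the floor. Mcl1 rose by 0.33 ± 0.05, for which the limma adjusted p was 0.0842 without the mouse block. Of the pro-apoptotic relatives 4 of 9 rose: Bmf by 2.18 ± 0.14, Bcl2l11, the gene of Bim, by 1.63 ± 0.08 and Pmaip1, the gene of Noxa, by 1.18 ± 0.05. Bbc3, the gene of Puma, fell by 1.05 ± 0.07 and stood at 6.98, 7.06, 6.98, 6.96 and 7.16 in IL-33 cells, against 8.09, 8.33, 7.87, 8.13 and 7.96 in untreated cells. The Bbc3 groups did not overlap, with mouse 5 highest among the IL-33 arrays. Of 10 caspases and apoptosome genes 6 rose and 3 fell. Casp4, the caspase that senses cytoplasmic lipopolysaccharide, rose by 2.15 ± 0.09, and Cflar, an inhibitor of caspase-8, by 0.94 ± 0.05. Casp2 and the initiator Casp9 fell by 0.70 ± 0.06 and 0.39 ± 0.06.

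The granule protein genes Epx, Prg2 and Prg3 were not called. Their changes were -0.05 ± 0.05, -0.00031 ± 0.04 and -0.03 ± 0.04, although values so near the top of the scale limit what could be seen. Of 15 genes of eosinophil identity 6 fell and 1 rose, beside 37.0% and 20.8% of all genes tested. With arrays centred on the median 5 rose and the list median turned from -0.05 to 0.06. Siglecf, the sialic acid receptor that marks mouse eosinophils, stood at 9.37, 9.84, 10.01, 9.71 and 9.83 in IL-33 cells, against 10.10, 10.72, 10.71, 10.35 and 10.44 in untreated cells. All IL-33 arrays of Siglecf lay below all untreated ones, and mouse 1 gave the lowest of them. It fell by 0.71 ± 0.07, and the related inhibitory receptor Siglece rose by 1.44 ± 0.10. Lineage factors split too: Cebpb rose by 1.03 ± 0.06 and Cebpa fell by 0.54 ± 0.06, Gata1 rose by 0.26 ± 0.05 and Gata2 fell by 0.32 ± 0.05, Runx3 rose by 0.38 ± 0.07 and Runx1 fell by 0.54 ± 0.05. Ets1 rose by 1.43 ± 0.07. In all, 9 of 18 lineage factors rose and 6 fell. Trafficking genes of granule release included falls of Stx3 (-0.83 ± 0.05), Rab3d (-0.85 ± 0.07) and Unc13d (-0.66 ± 0.06) and a rise of Rab20 (1.89 ± 0.09). Of 27 such genes 7 rose and 9 fell, beside 20.8% and 37.0% of all genes tested. With arrays centred on the median 10 rose and 7 fell, and the list median turned from -0.05 to 0.07.

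Genes of alternative activation and arginine metabolism rose in 10 of 13 and fell in 1. Arg1, arginase 1, stood at 9.64, 9.35, 9.57, 9.05 and 8.91 in IL-33 cells, against 5.80, 6.22, 6.43, 5.29 and 5.57 in untreated cells. Each Arg1 value after IL-33 lay above each untreated value, and mouse 3 was highest among the untreated arrays. Arg2 and the arginine transporter Slc7a2 rose by 2.06 ± 0.06 and 2.88 ± 0.08. Acod1, which makes itaconate, rose by 4.41 ± 0.15 and averaged 11.56 ± 0.20 in IL-33 cells and 7.15 ± 0.35 in untreated cells. Chil1, a chitinase-like protein gene, rose by 2.08 ± 0.08 and Retnla by 0.93 ± 0.17, and Nos2, which competes for arginine, had a change of 0.16 ± 0.12 and was not called. Among 16 remodelling genes 8 rose (4 without the mouse block) and 4 fell. The transglutaminase Tgm2 rose by 1.17 ± 0.06 and the protease inhibitor Timp1 by 0.62 ± 0.10, whereas Timp2 and the gelatinase Mmp9 fell by 0.86 ± 0.07 and 0.65 ± 0.07.

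Most of the antioxidant genes rose. Of 18 genes linked to the factor Nrf2, 13 rose and 0 fell (median 0.62). Sod2, the mitochondrial superoxide dismutase, also a known NF-kB target, stood at 11.60, 11.73, 11.60, 11.75 and 11.67 in IL-33 cells, against 9.80, 9.54, 9.57, 9.69 and 9.65 in untreated cells. The Sod2 groups did not overlap, with mouse 4 highest among the IL-33 arrays. Hmox1, heme oxygenase 1, rose by 1.62 ± 0.09, Slc7a11, the cystine carrier, by 1.59 ± 0.10, Txnrd1, thioredoxin reductase, by 1.42 ± 0.08 and Gclm and Gclc, the subunits of glutamate-cysteine ligase, by 0.91 ± 0.06 and 0.86 ± 0.08. Srxn1, sulfiredoxin, rose by 1.80 ± 0.09. Its promoter window is shown because it holds 2 copies of TGANTCA, the letters searched on both strands for AP-1, in capitals.
Srxn1, chr2:152105402-152105505, plus strand: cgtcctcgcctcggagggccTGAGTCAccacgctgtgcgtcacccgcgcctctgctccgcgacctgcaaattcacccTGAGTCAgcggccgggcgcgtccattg

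These letters were in 583 of 12110 promoters of tested genes (4.81%) and in 29 of 344 of those that rose at least 2-fold (8.43%). Across the complete promoter set, 6.75% of 32841 promoters hold them. Of the superoxide-producing NADPH oxidase, the cytoplasmic subunits Ncf1 and Ncf4 rose by 1.04 ± 0.07 and 0.57 ± 0.04, and the proton channel Hvcn1 fell by 0.72 ± 0.07. Sod1, the cytoplasmic superoxide dismutase, had a change of -0.01 ± 0.09 and was not called.

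Genes of glucose carriers moved in both directions. Slc2a1, the widespread glucose carrier GLUT1, stood at 8.96, 9.09, 8.93, 9.14 and 8.93 in IL-33 cells, against 7.80, 7.88, 7.93, 7.70 and 7.71 in untreated cells. All IL-33 arrays of Slc2a1 lay above all untreated ones, and mouse 5 gave the lowest of them. Slc2a3, the high-affinity carrier GLUT3, averaged 10.78 ± 0.12 in IL-33 cells and 11.33 ± 0.11 in untreated cells and fell by 0.55 ± 0.06. Slc2a6 rose by 1.82 ± 0.06, and Slc16a3, which exports lactate, by 1.03 ± 0.07. Among 17 genes of glucose uptake and glycolysis 10 rose and 5 fell. Pfkl and Pfkp, phosphofructokinase subunits, rose by 0.75 ± 0.11 and 0.52 ± 0.09, and Hk3 and Hk1, hexokinases, fell by 0.45 ± 0.05 and 0.39 ± 0.08. Pkm, the pyruvate kinase at the end of the pathway, had a change of -0.07 ± 0.05 and was not called. Of 26 respiratory chain genes 16 fell and 0 rose, by at most 0.42 with a median of -0.15. With arrays centred on the median 9 fell and the median was -0.04.

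Genes of the nucleolus showed small rises. Of 41 ribosome biogenesis genes 27 rose and 6 fell (median 0.27), with Rrs1 (0.91 ± 0.05), Wdr12 (0.68 ± 0.08) and Gnl3 (0.54 ± 0.05) rising and Polr1a, the largest subunit of RNA polymerase I, falling by 0.44 ± 0.07. Ribosomal protein genes were not called in 17 of 20 and fell in 3. Among 28 translation factors and tRNA synthetases 10 rose and 8 fell (5 fell without the mouse block, 4 with arrays centred on the median). Eif5a and the cap-binding Eif4e rose by 0.57 ± 0.06 and 0.56 ± 0.06, and Eif4ebp2, an inhibitor of cap-dependent translation, fell by 0.71 ± 0.08. Of 35 proteasome genes 15 rose (25 with arrays centred on the median) and 5 fell. The gene of the constitutive catalytic subunit Psmb5 rose by 0.28 ± 0.05 and Psmb9 and Psmb8, catalytic subunits of the immunoproteasome, fell by 0.93 ± 0.04 and 0.54 ± 0.05. Amino acid carriers rose in 7 of 17 and fell in 6, with Slc43a2, a carrier of branched-chain amino acids, falling by 1.20 ± 0.10.

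Endoplasmic reticulum and sterol genes had mixed and mostly small changes. Of 23 stress genes of the endoplasmic reticulum 12 fell and 6 rose. Without the mouse block 4 fell and 3 rose, with arrays centred on the median 6 fell and 8 rose, and without mice 2 and 3 8 fell and 5 rose. Eif2ak3, the sensor PERK, fell by 0.93 ± 0.07 and Ddit3, the factor CHOP, by 0.69 ± 0.06, and Ern1, the sensor IRE1, rose by 0.56 ± 0.05. Xbp1, a factor eosinophils need to develop, had a change of 0.00 ± 0.05 and was not called. Of 22 cholesterol and lipid genes 11 fell and 5 rose (4 and 2 without the mouse block, 8 and 9 with arrays centred on the median), and the median of -0.09 turned to 0.02 with arrays centred on the median. Insig1, which retains the sterol sensor in the endoplasmic reticulum, rose by 1.31 ± 0.10 and the enzyme genes Hmgcs1 and Idi1 of the mevalonate and isoprenoid steps by 0.68 ± 0.10 (adjusted p 0.115 without the mouse block) and 0.83 ± 0.12. Dhcr7, which makes cholesterol in the last step, fell by 0.95 ± 0.06.

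**Figure D3:**
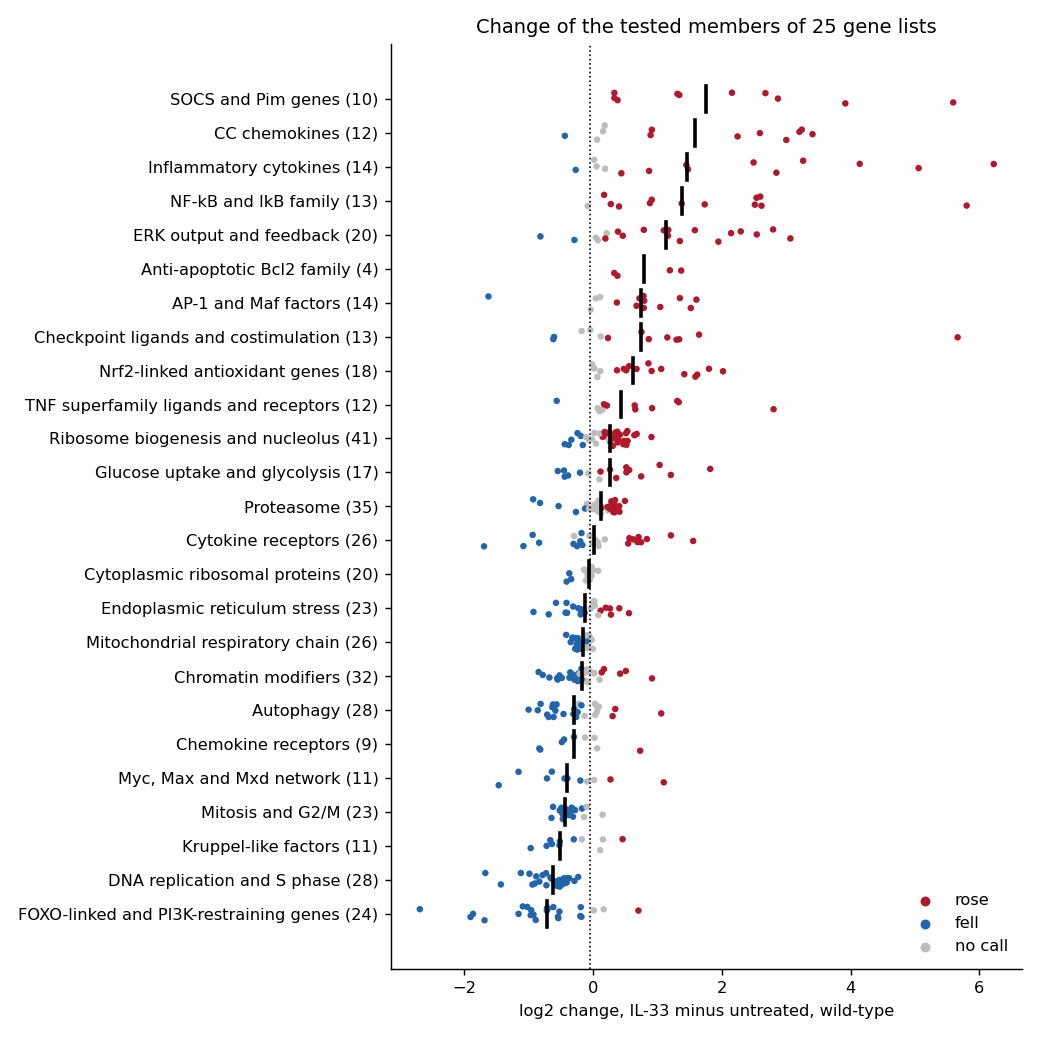
Log2 change, IL-33 minus untreated, of each tested member (points) and the median (black bar) of 25 gene lists in wild-type cells, with the number of tested members in brackets. Red members rose, blue members fell, grey ones were not called, and the dotted line is the median of all genes tested, -0.05. The SOCS and Pim list lies wholly to the right of the line, the FOXO-linked and DNA replication lists lie almost wholly to the left, and lists such as cytokine receptors spread to both sides.

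Genes listed as linked to FOXO factors or as brakes on PI3-kinase signalling fell in 21 of 24 and rose in 1, with a median of -0.72. The list was chosen with earlier results of these data known, so its counts describe its members and test nothing. FOXO activity was not measured. Growth signals through PI3-kinase and Akt keep FOXO factors out of the nucleus. Txnip, which restrains glucose uptake, stood at 8.31, 9.01, 7.98, 8.38 and 8.21 in IL-33 cells, against 9.35, 10.26, 8.78, 9.23 and 9.07 in untreated cells. The Txnip groups overlapped, and 5 of 5 mice were lower after IL-33. Fbxo32, a FOXO-driven ubiquitin ligase gene, fell by 1.86 ± 0.12, Tsc22d3, the leucine zipper protein GILZ, by 1.69 ± 0.07, the cell cycle inhibitor genes Cdkn1b and Ccng2 by 1.09 ± 0.12 and 1.02 ± 0.10 and Foxo4, Foxo3 and Foxo1 themselves by 0.70 ± 0.06, 0.62 ± 0.06 and 0.54 ± 0.07. Btg1, an antiproliferative gene, was the member that rose (0.70 ± 0.15). The FOXO letters TGTTTAC were in 3 of 30 promoters of this list (10%), on either strand within 250 bases. They were in 2.48% of promoters of tested genes and in 5 of 226 of those that fell at least 2-fold (2.21%). The letters CACGTG, an E-box, were also in 3 of the 30, against 8.10% of promoters of tested genes. The NF-kB consensus was in 0 of the 30.

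Kruppel-like factors, many of which maintain quiescence, fell in 7 of 11 and rose in 1 (3 with arrays centred on the median). Klf2, a factor of leukocyte quiescence, averaged 8.06 ± 0.25 in IL-33 cells and 9.03 ± 0.36 in untreated cells and fell by 0.97 ± 0.07, and Klf10, Klf6 and Klf9 fell by 0.72 ± 0.08, 0.66 ± 0.05 and 0.64 ± 0.09. In the Myc network, which is balanced between the activator Myc and the repressor partners of Max, the repressors went down: Mxd1, Mxd4, Mxi1 and Mnt fell by 1.47 ± 0.09, 1.16 ± 0.06, 0.72 ± 0.06 and 0.64 ± 0.08, while Max fell by 0.44 ± 0.06. Mxd1 stood at 8.19, 8.29, 8.13, 8.30 and 8.28 in IL-33 cells, against 9.74, 9.82, 9.40, 9.81 and 9.76 in untreated cells. All 5 IL-33 arrays lay below all untreated ones.

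Autophagy genes fell in 18 of 28 and rose in 3 (6 with arrays centred on the median), with a median of -0.29. Ulk1 and Ulk2, the kinases that start autophagy, fell by 0.71 ± 0.07 and 0.69 ± 0.05, Atg14, a subunit of the lipid kinase complex, by 1.00 ± 0.09 and Map1lc3b, the membrane marker LC3, by 0.86 ± 0.05. Sqstm1, the cargo receptor p62 and also a target of Nrf2, went the other way and stood at 12.89, 12.73, 12.45, 12.87 and 12.76 in IL-33 cells, against 11.89, 11.65, 11.37, 11.82 and 11.68 in untreated cells. The Sqstm1 groups did not overlap, with mouse 1 highest among the IL-33 arrays. Its change of 1.06 ± 0.04 was among the 5 steadiest of all 2-fold changes, with an SD of 0.031 between mice. Of 26 lysosomal genes 14 fell (8 without the mouse block, 7 with arrays centred on the median, 7 without mice 2 and 3) and 5 rose. Ctsc, the cathepsin that activates granule serine proteases, rose by 1.46 ± 0.08, and the cathepsins Ctsl and Ctsh fell by 0.53 ± 0.09 and 0.39 ± 0.04. Tfe3, a transcription factor of lysosome genes, rose by 0.78 ± 0.05.

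Of 32 chromatin modifiers 17 fell (10 with arrays centred on the median, 11 without mice 2 and 3) and 5 rose (2 without the mouse block): the DNA demethylase Tet2 rose by 0.91 ± 0.08, while the maintenance methyltransferase Dnmt1 fell by 0.78 ± 0.06 and Hdac5 by 0.68 ± 0.07. Of 10 cyclic nucleotide phosphodiesterases 6 fell and 1 rose. Pde4b, which degrades cyclic AMP in leukocytes, was the one that rose, whereas Pde2a fell by 0.74 ± 0.07. Pde4b stood at 8.40, 8.73, 8.06, 8.46 and 8.34 in IL-33 cells, against 6.10, 6.97, 5.94, 6.29 and 6.15 in untreated cells. All IL-33 arrays of Pde4b lay above all untreated ones, and mouse 3 gave the lowest of them. Among 13 clock genes 6 rose and 6 fell: Nfil3, which represses the same sites that Dbp activates, rose by 1.14 ± 0.06 and Dbp fell by 0.96 ± 0.07, and Bhlhe40 rose by 0.92 ± 0.07 while Per2 fell by 0.49 ± 0.10. Nr4a1, an orphan nuclear receptor of early responses, rose by 1.82 ± 0.13, and the ligand-bound factors Ahr and Rxra fell by 0.81 ± 0.08 and 0.75 ± 0.06.

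Interferon-stimulated genes moved both ways, with 7 of 21 up and 5 down (3 down without mice 2 and 3), beside 20.8% and 37.0% of all genes tested. Gbp2 and Gbp3, guanylate-binding proteins, rose by 2.55 ± 0.11 and 1.83 ± 0.23. Oasl2 and Ifit2, which respond to type I interferon, fell by 0.59 ± 0.08 and 0.47 ± 0.13 (for Ifit2, adjusted p 0.114 without the mouse block), and Rsad2 and Ifit1 had changes of 0.04 ± 0.16 and 0.03 ± 0.16 without a call.

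**Figure D4:**
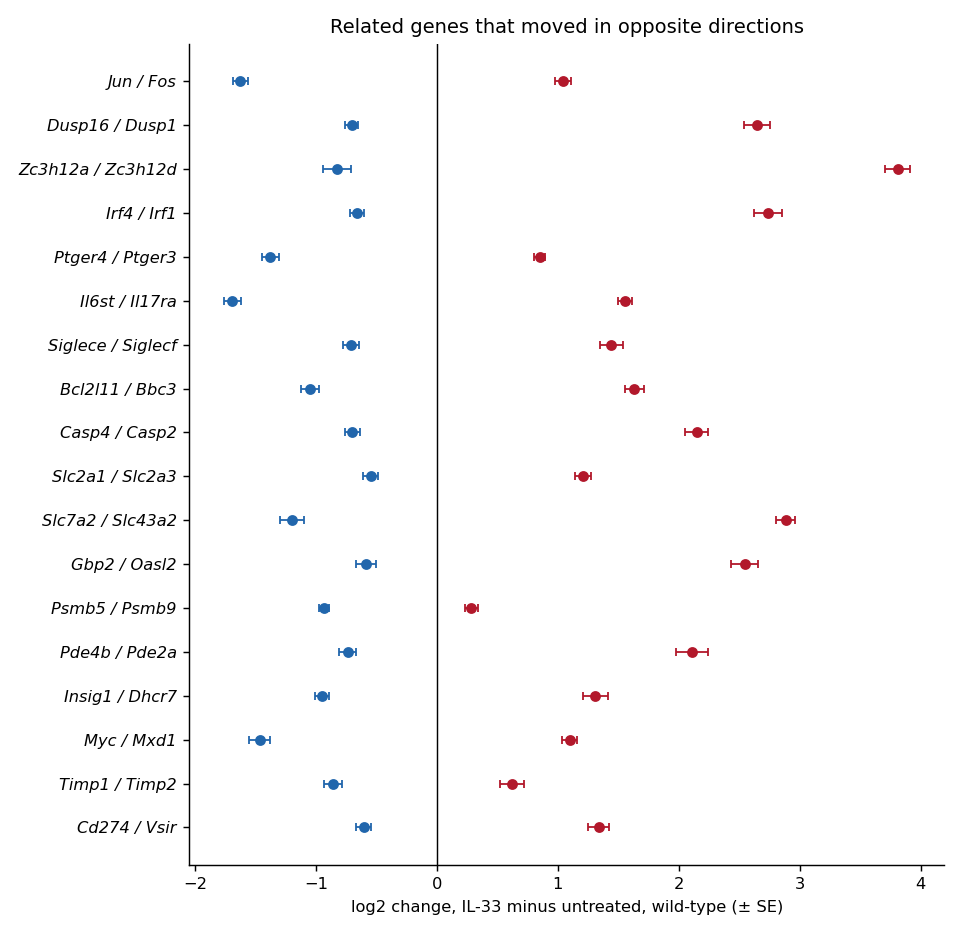
Log2 change ± SE, IL-33 minus untreated, in wild-type cells for pairs of related genes of which one rose (red) and the other fell (blue); the pairs were chosen after their values were seen. Jun and Fos lie at 1.04 and -1.62, Ptger4 and Ptger3 at 0.85 and -1.38, and error bars stay clear of 0 in all pairs.

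DNA replication genes fell together although the mice differed widely in their level. All 28 tested members fell, with a median of -0.62 (26 fell with arrays centred on the median, 27 without mice 2 and 3). The mean over the list was 6.92, 5.95, 7.19, 6.65 and 7.01 in IL-33 cells, against 7.60, 6.61, 7.85, 7.38 and 7.73 in untreated cells, in mice 1 to 5. Between mice it thus spanned 1.24 on IL-33 arrays and 1.25 on untreated arrays, yet within each mouse it was lower after IL-33, by 0.65 to 0.73 (mean 0.69, SD 0.03, n = 5). Without the mouse block only 13 members were called, since the spread between mice then counts as error. Cdc6, which loads the replicative helicase, stood at 4.41, 3.28, 4.78, 4.02 and 4.64 in IL-33 cells, against 6.25, 4.79, 6.44, 5.71 and 6.32 in untreated cells. Each Cdc6 value after IL-33 lay below each untreated value, and mouse 3 was highest among the untreated arrays. Cdt1, its partner in that step, fell by 1.43 ± 0.06, and Mcm7 and Mcm6 of the helicase fell by 0.90 ± 0.06 and 0.88 ± 0.09. E2f2, a driver of S phase, fell by 1.67 ± 0.08 and cyclin E2, Ccne2, by 1.12 ± 0.14. Without the mouse block the adjusted p was 0.0525 for Mcm6 and 0.0698 for Ccne2. The letters TTTNGCGC, a form of the E2F site, were in 5 of 25 promoters of the list (20%), on either strand. They were in 1.92% of promoters of tested genes and in 2 of 226 of those that fell at least 2-fold (0.885%).

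Mitotic genes moved in the same direction with smaller falls. Of 23, 20 fell and 0 rose, with a median of -0.43, but 2 fell without the mouse block and 15 without mice 2 and 3. Their mean was 8.28, 7.09, 8.81, 7.88 and 8.57 in IL-33 cells, against 8.50, 7.65, 9.22, 8.22 and 8.90 in untreated cells. Kif11, a spindle motor, fell by 0.65 ± 0.08 and Mki67, a marker of cycling cells, by 0.46 ± 0.11 (adjusted p without the mouse block 0.103 and 0.338, and for Mki67 0.0942 without mice 2 and 3), and Aurka had a change of -0.10 ± 0.07 without a call. Of 13 genes of homologous recombination and Fanconi repair 7 fell and 0 rose (2 fell without the mouse block), with Brca1 at -0.77 ± 0.07 (adjusted p 0.0529 without the mouse block). Stem and progenitor markers, 6 of 8 of which fell (3 without the mouse block), moved with them: Sox4, Erg and Hoxa9 fell by 1.06 ± 0.06, 0.95 ± 0.11 and 0.91 ± 0.09. The part that the number of cycling or immature cells has in these falls was not tested.

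**Figure D5:**
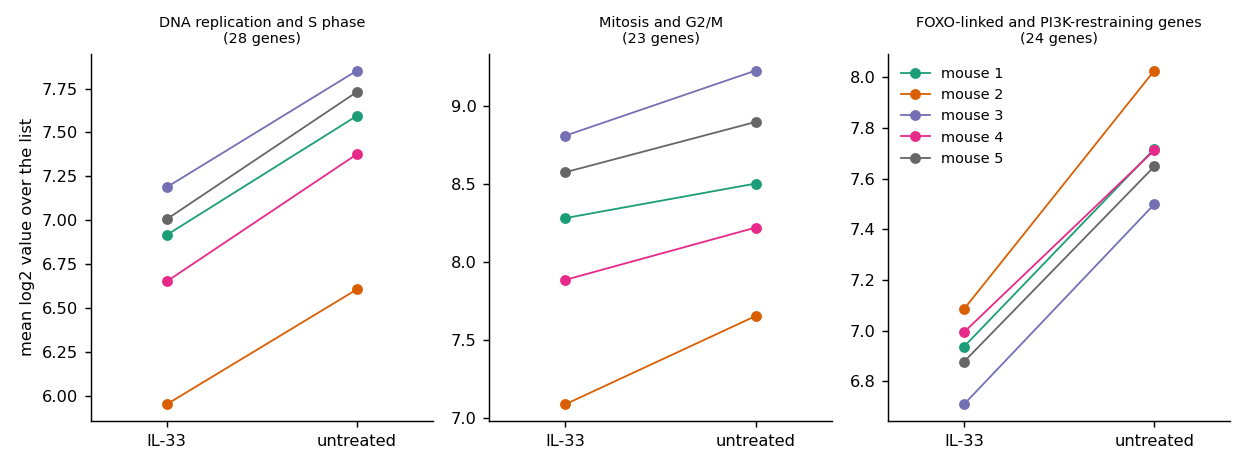
Mean log2 value over the tested genes of 3 lists on the IL-33 array (left) and the untreated array (right) of each wild-type mouse, 1 colour per mouse. In the DNA replication and mitosis panels mouse 2 is lowest and every mouse is lower after IL-33, with a fall of 0.65 to 0.73 within each mouse for DNA replication. In the FOXO-linked panel mouse 2 is highest.

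Some genes crossed the floor altogether. On all 5 IL-33 arrays and none of the 5 untreated ones, 17 genes lay above it, among them Tpbg (at least 5.7-fold), Ch25h, which makes 25-hydroxycholesterol (at least 4.23-fold), Sucnr1, the succinate receptor (at least 2.8-fold), Spic, a factor of iron-recycling macrophages (at least 4.19-fold), and Vegfc, a lymphatic growth factor (at least 2.42-fold). Tpbg stood at 6.10, 5.46, 6.65, 6.12 and 6.17 in IL-33 cells, against 2.63, 2.03, 2.34, 1.99 and 2.18 in untreated cells. The Tpbg groups did not overlap, with mouse 3 highest among the IL-33 arrays. In the other direction 9 genes lay above the floor only in untreated cells, among them Smad6, an inhibitor of BMP signalling, and Rora, a nuclear receptor, with falls of at least 1.44-fold and 1.52-fold. In all, 10428 genes were above the floor on all 10 arrays.

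Among the 30 largest rises outside the lists were Smpdl3b, a lipid-modifying phosphodiesterase of innate immune cells (4.87 ± 0.10), Pilra, an inhibitory receptor (3.95 ± 0.11), Treml4 (3.14 ± 0.10) and Dgat2, an enzyme of triglyceride synthesis (3.13 ± 0.21). Among the 30 largest falls were Sncaip (-2.26 ± 0.12), Sema4f, a semaphorin (-1.96 ± 0.07), Chdh, choline dehydrogenase (-1.95 ± 0.16), Thbd, thrombomodulin (-1.58 ± 0.07), and Card6 (-1.72 ± 0.10). In families named only by type, 214 numbered zinc finger genes of the Zfp series had 31 rises and 82 falls and 223 solute carriers had 58 and 83. Both lie near the shares over all genes tested, 20.8% up and 37.0% down.

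Steadiness between mice differed between genes. Among 2-fold changes, the widest spreads of the change between mice were those of Itsn1 (SD 0.78), Cxcl5 (0.74), Egr3 (0.72), Spic (0.71) and Peg10 (0.70). In untreated cells Itsn1, Cxcl5 and Spic averaged 3.94, 3.79 and 2.59, near or under the floor, and Egr3 averaged 6.24. The part of the level in these spreads was not tested. In Egr3 the change per mouse ran from 1.50 to 3.18. At the other end Mxd4, Tmem86a, Smim5 and Foxred2 had SDs of about 0.05 or less, and each fell by more than 1 in all 5 mice.

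Summed levels of the markers of other cell types overlapped between IL-33 and untreated arrays. The summed level of 13 neutrophil markers (as log2 of the sum) ran from 13.92 to 14.72 on IL-33 arrays and from 14.18 to 14.68 on untreated arrays, that of 16 monocyte, macrophage and dendritic markers from 13.34 to 13.75 on IL-33 arrays and from 13.01 to 13.61 on untreated arrays, and that of 11 mast cell and basophil markers from 13.77 to 13.99 on IL-33 arrays and from 13.88 to 14.09 on untreated arrays. On IL-33 arrays against untreated arrays, lymphocyte markers were at 8.09 to 9.32 against 8.26 to 9.70, erythroid and megakaryocyte markers at 12.05 to 12.21 against 12.01 to 12.21, stem and progenitor markers at 10.43 to 11.32 against 10.53 to 11.48, and stromal and endothelial markers at 10.66 to 11.58 against 10.64 to 11.52. All these ranges overlap between the groups. Within mice, the mean over the tested markers changed by -0.67 to -0.46 for the stem and progenitor list, by -0.301 to -0.004 for the monocyte, macrophage and dendritic list, by 0.24 to 0.40 for the erythroid and megakaryocyte list and by 0.10 to 0.30 for the stromal and endothelial list, so that each had 1 direction in all 5 mice. The neutrophil, mast cell and basophil, and lymphocyte lists were each lower in 4 mice and higher in 1. Single members were called too: 6 of 13 neutrophil markers fell (1 without the mouse block) and 1, Lcn2, rose by 0.96 ± 0.11. Of 15 tested monocyte, macrophage and dendritic markers 8 fell and 2 rose (4 fell without the mouse block, and 5 fell and 5 rose with arrays centred on the median), and of 9 mast cell and basophil markers 4 fell and 2 rose. Of 5 tested erythroid and megakaryocyte markers 1 rose, Car2, carbonic anhydrase 2, by 1.87 ± 0.08, and 2 fell. The median change of these markers was -0.03, so most of them did not share the rise of their list mean. At or below the floor on all 10 arrays were 4 of 11 lymphocyte markers, Cd3g, Cd8a, Ms4a1 and Ncr1. So were 2 of 11 mast cell and basophil markers (Mcpt4, Tpsab1), 3 of 8 erythroid and megakaryocyte markers (among them Alas2) and 3 of 9 stromal and endothelial markers (among them Col1a1 and Pdgfra). Other members were bright: the 9 tested mast cell and basophil markers had a median level of 9.53 in IL-33 cells and 9.85 in untreated cells. Of the lymphocyte markers, 6 were bright enough to be tested. The part of other cells in the results above was not tested beyond these values.

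The same genes were set beside their values in Dusp5-/- cells. There IL-33 raised 2761 genes (23.5%) and lowered 4942 (42.0%). No gene passed the test of the difference between genotypes (limma interaction, 0 of 11767), although 1633 had an unadjusted p under 0.05, and other fits called between 0 and 162. Dusp5 itself stood at 4.68 to 5.15 with IL-33 and 4.02 to 4.85 without it in those cells, against 9.28 to 10.23 and 7.85 to 8.51 in wild-type cells; the stretch of the transcript that its probe set reads is not described in the labels. Ptgs2 changed by 8.84 in Dusp5-/- cells and 8.06 in wild-type cells, Il6 by 5.30 and 5.06, and Pik3ip1 by -3.10 and -2.69. A p that misses the threshold does not show that the genotypes responded alike.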

How the data were processed

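RNA of 20 samples was labelled with the Affymetrix 3' IVT Express kit and hybridised to one-colour arrays, per the labels' protocols. The authors' deposited log2 values, for 20630 probe sets on 20 arrays, were used unchanged. The unit was read from the values, which ran from 1.27 to 13.99. Background correction, summarization and normalization are each not given in the sources used, so differences carry whatever scaling the authors applied.

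The platform annotation gave 17826 probe sets 1 gene symbol, 91 several and 2711 none, and 2 were controls. By gene number, 17675 were matched to RefSeq (GRCm38.p6) for current symbols. Where several probe sets named a gene (53 genes), the brightest on average stood for it. A gene was tested when it exceeded the 40th percentile of the array (3.56 to 3.68), called the floor, on at least 5 arrays. Where the dimmer group lay on average under the floor, a fold is a lower bound with arrays under the floor set to it. The number of arrays limits the precision.

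All 20 arrays were fitted with limma 3.58.1 in R 4.3.3 (lmFit, eBayes) with mouse as a fixed block. The contrast was IL-33 minus untreated in wild-type cells, and the interaction compared it with Dusp5-/- cells. P-values were adjusted by Benjamini-Hochberg over 11767 genes, and calls needed an adjusted p under 0.05. Per the series text each genotype had 5 mice, and wild-type arrays of the same number correlated at 0.262 to 0.783 in their deviations from the group means, all best with their own number, so numbers were taken as mice. On simulated data with 100 changed genes per size, 84% of changes of 0.5 and 100% of changes of 1 were recovered, and 15 unchanged genes were called. The simulation changed far fewer genes than were called in the data and held no shift of whole arrays. Its rates therefore need not carry over to the calls reported here.

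The members and the 67 gene lists were chosen with earlier results of these data known. Genes were named by a rule: the 6 response markers, the 30 largest rises and falls, genes that cross the floor, up to 5 called and 3 uncalled members of each list, the most and least variable changes, and Dusp5, Mcl1, Bcl2l1, Epx, Prg2, Siglecf, Ccr3 and Il5ra. A further 63 of the 303 genes named, set beside relatives, were chosen after their values were seen, as were the pairs drawn. Motifs were searched on both strands of the 250 bases before each start in RefSeq promoters (GRCm38.p6). Summaries used Python 3.11.15, numpy 2.4.6 and pandas 2.3.3, and plots matplotlib 3.10.9. Alternatives covered the block, scaling, filter, probe choice, variance prior and left-out mice.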

Additional observations from a re-analysis of the deposited data

Results flagged for a closer look

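Of 606 sets of 5 values (each gene named here, in IL-33 and in untreated arrays of wild-type mice), 50 held 1 array far from the other 4. The number in brackets is the gap from that array to its nearest neighbour as a share of the whole range, and only shares above 0.71 are listed; chance alone gives about 1 set in 20.

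Mouse 2 was the array apart in 13 of the IL-33 sets and 21 of the untreated sets. Its IL-33 array was the highest for Ahr (0.715), Bcl2 (0.785), Csf2 (0.892), Cxcl2 (0.790), Pdcd1lg2 (0.797), Spred2 (0.825) and Zfp36l2 (0.759), and the lowest for Dhcr7 (0.740), Dnmt1 (0.783), Epx (0.714), Insig1 (0.712), Prg3 (0.809) and Siglece (0.742). Its untreated array was the highest for Ahr (0.711), Cxcl3 (0.808), Egr2 (0.835), Hdac5 (0.762), Il17ra (0.805), Jak2 (0.737), Nfil3 (0.786), Stat5b (0.747), Tank (0.727), Tnfaip3 (0.755) and Zc3h12a (0.808). It was the lowest untreated array for Ccne2 (0.731), Cd81 (0.712), Chil1 (0.711), Hk3 (0.874), Insig1 (0.781), Mcm6 (0.762), Pfkl (0.754), Prg2 (0.773), Psmb5 (0.853) and Stx3 (0.731).

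The remaining sets belonged to the other mice. Among IL-33 arrays, the array of mouse 1 was the highest for Timp1 (0.788); the array of mouse 3 was the highest for Bcl2l1 (0.822) and Tgm2 (0.728). Among the same arrays, the array of mouse 3 was the lowest for Casp9 (0.861), Gclm (0.732) and Slc16a3 (0.906), the array of mouse 5 was the highest for Map3k1 (0.753) and the array of mouse 5 was the lowest for Mmp9 (0.732). Among untreated arrays, the array of mouse 1 was the highest for Timp2 (0.787) and the array of mouse 1 was the lowest for Bhlhe40 (0.830). In the rest of the untreated sets, the array of mouse 3 was the highest for Car2 (0.716), the array of mouse 3 was the lowest for Mxd1 (0.822), the array of mouse 4 was the lowest for Casp4 (0.751) and the array of mouse 5 was the lowest for Itsn1 (0.726), Nr4a1 (0.726) and Runx3 (0.715).

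In level, Cxcl2 stood at 12.19 in IL-33 cells of mouse 2 and at 11.25 to 11.45 in those of the other 4 mice, and Csf2 at 5.21 against 4.42 to 4.50. Epx was 12.85 in IL-33 cells of mouse 2 and 13.50 to 13.76 in the others. Timp1 was 5.88 in IL-33 cells of mouse 1 and 4.77 to 5.01 in the others. Every gene in these lists kept its direction of change without mice 2 and 3 in the wild-type comparison. Why mouse 2 stands apart was not tested.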

How the results depend on the processing

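Leaving out the pairing, that is fitting without the mouse block, gave 1890 rises and 3137 falls in place of 2445 and 4356, and 0 interaction calls. Of the main calls, 5018 were called without it and 0 in the opposite direction. It ended the call of 10 named genes, among them Ccr3 and Mki67, whose adjusted p became 0.525 and 0.338. Centring arrays on the median of the genes tested gave 3931 rises, and falls of at least 2-fold numbered 127 in place of 197. The filter at the 60th percentile, mouse as a random block and a trended robust prior called 5, 26 and 162 genes in the interaction, against 0 in the reported limma fit, where 1633 had an unadjusted p under 0.05.

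With each mouse left out in turn, rises numbered 2144 to 2361, falls 4002 to 4248, calls of the IL-33 response in wild-type cells in all 6155 to 6609, rises of at least 2-fold 307 to 323, falls of at least 2-fold 189 to 213 and interaction calls 0 to 2, the 2 without replicate 3. Without mice 2 and 3, an alternative chosen after seeing the data, Mki67 and Il18 were no longer called (adjusted p 0.0942 and 0.0853). Over the 303 named genes and all alternatives, 4813 values kept direction and call, 18 lost the call, 3 gained it and 0 turned. The gains were all of Ptgdr2. With the probe set of highest SD, 1 call of all genes was opposite. Causes of these differences were not tested. Small changes are limited by the unknown scaling, and values near either end of the log2 range by the array.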
